A study of Aspergillus nidulans with 9 samples.

Results

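The genes described here are those of *Aspergillus nidulans* whose read counts differed between Δ*laeA* and WT vegetative cells (Vege) while staying near the WT level in libraries labelled Δ*veA*. Counts were divided by the total of their library and multiplied by 1000000 (CPM), and r was the log2 ratio of the mutant mean over the WT mean, each with 0.5 CPM added, minus the median of this ratio over genes with a mean of at least 1 CPM. That median was -0.31 in Δ*laeA* and -0.23 in libraries labelled Δ*veA*, so r measures change relative to the middle gene of each mutant. A gene was taken when r was at least 1.2 or at most -1.2 in Δ*laeA* (a 2.30-fold change), lay between -0.5 and 0.5 in libraries labelled Δ*veA* (within 1.41-fold), and the mean reached 5 CPM in Δ*laeA* or WT. This gave 125 of the 10988 genes of the count table, 83 of them raised and 42 lowered in Δ*laeA*. The genes were thus selected on the measured values of all 3 groups, so their levels, differences and model calls below are a description of the selection and not an independent test.

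The RNA-seq data come from Vege that had grown for 24 h in darkness at 37 °C, and each of the 3 strains has 3 libraries. The Δ*laeA* strain carries *laeA* replaced by a *methG* marker in a *methG1* background with *veA*, the Δ*veA* strain carries *veA* replaced by *argB*, and the WT strain is listed as wild type without further markers. Each genotype is represented by a single strain, and the sources used here do not say if its 3 libraries come from independent cultures, so the spread between them may be technical only.

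LaeA is a nuclear protein with a methyltransferase-like fold that is known in Aspergillus as a global regulator of secondary metabolism and development. VeA is a member of the *velvet* family that enters the nucleus in the dark together with VelB, and LaeA can join this pair to form the VelB/VeA/LaeA complex. LaeA may also interact with further proteins. The genes described here differed in Δ*laeA* and stayed near the WT level in libraries labelled Δ*veA*, which alone does not show what each protein does on its own.

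Library totals ran from 13396869 to 35755046 counts on genes, with a median of 20346515. The *laeA* counts followed the labels, as given below. *veA* went against them, with 780, 744 and 743 CPM in libraries labelled Δ*veA*, against 133, 123 and 124 CPM in WT. Of the marker genes, *argB* had 433 ± 7.8 CPM in libraries labelled Δ*veA* and 92.2 ± 1.44 CPM in WT, and AN7051 (*metG*) had 98.8 ± 2.93 CPM in Δ*laeA*, 52.6 ± 5.02 CPM in libraries labelled Δ*veA* and 37 ± 1.66 CPM in WT (SD, n = 3 each), so it was higher than in WT also in the strain described without that marker. Of the markers of asexual structures 6 were matched (*brlA*, *abaA*, *wetA*, *yA*, *rodA* and *dewA*), and their summed level was 14.8 to 17 CPM in Δ*laeA*, 11.2 to 13.6 CPM in libraries labelled Δ*veA* and 52.9 to 54.2 CPM in WT. *brlA*, the regulator that starts conidiation, had means of 1.06 CPM in Δ*laeA*, 1.5 CPM in libraries labelled Δ*veA* and 19 CPM in WT, while the hydrophobin genes *rodA* and *dewA* were under 0.5 CPM in both mutants and at 14 and 0.782 CPM in WT. The other markers differed less evenly: *wetA* had means of 4.86, 0.754 and 6.65 CPM in the same order, *abaA* 0.894, 1.06 and 2.42 CPM, and *yA* 8.15, 8.23 and 10.7 CPM, so the higher sum in WT came mostly from *brlA* and *rodA*. The part of these reads in the members' values was not tested. The 50 genes with the most counts took 25.6 to 25.9% of the counts in Δ*laeA*, 23.5 to 23.8% in libraries labelled Δ*veA* and 20.3 to 20.4% in WT.

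The members were a small share of what differed in Δ*laeA*. In all, 1267 genes passed the same change and level thresholds in Δ*laeA*, and the 125 members were 9.87% of them. Among these 1267 genes, 497 were raised and 770 lowered (39.2% raised), whereas the members were 66.4% raised. The other 1142 genes, which left the window in libraries labelled Δ*veA*, were 36.3% raised. The split of the members depended on the centring. With r left without centring, which shifts the middle gene by -0.31 and -0.23 on the log2 scale, the rule took 47 raised and 67 lowered genes (41.2% raised), and 63 of these were among the 125 members. The mirror rule, a change in libraries labelled Δ*veA* with r inside the window in Δ*laeA*, took 302 genes, 102 raised and 200 lowered.

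**Figure D1:**
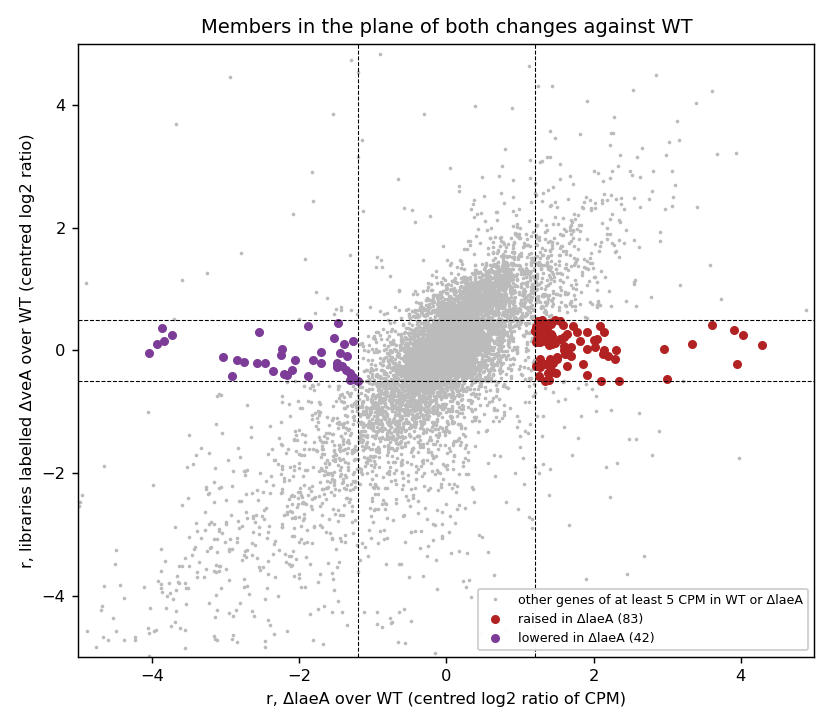
Each point is a gene with at least 5 CPM in Δ*laeA* or WT; the horizontal axis is r of Δ*laeA* over WT and the vertical axis is r of the libraries labelled Δ*veA* over WT (both centred log2 ratios of CPM), with dashed lines at the limits of the rule. The 83 raised members (red) and 42 lowered members (purple) fill the horizontal band between -0.5 and 0.5 outside -1.2 and 1.2. Of the raised members 43 lie between 1.2 and 1.5, and of the lowered members 17 lie between -1.5 and -1.2. A few members lie beyond 3 or -3.

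Among the 83 raised members r in Δ*laeA* ran from 1.2 to 4.28 with a median of 1.49, and their median level was 45.7 CPM in Δ*laeA*, 20.3 CPM in libraries labelled Δ*veA* and 19.2 CPM in WT. The lowest band held most of them, with 43 members between 1.2 and 1.5 and 20 at 2 or above. Among the 42 lowered members r ran from -4.03 to -1.2 with a median of -1.84, and the median level was 4.33 CPM in Δ*laeA*, 18.7 CPM in libraries labelled Δ*veA* and 24.5 CPM in WT. Of the lowered members 19 were at -2 or below and 17 between -1.5 and -1.2. The Δ*laeA* and WT libraries of all 125 members did not overlap, as was the case for 79.3% of the 9481 genes that entered the model below. The libraries labelled Δ*veA* overlapped those of WT in 52 members and did not in 73, against 81.2% of the genes tested that did not. These comparisons are of CPM as it stands, in which the middle gene of the mutants is lower than in WT. With the centring of r applied to each library, Δ*laeA* and WT still did not overlap in any of the 125 members, but the order of libraries labelled Δ*veA* and WT changed in many: those libraries were all below WT in 61 members and above it in 12 by CPM, and below in 38 and above in 34 with centring. Where an order stated for a named member changes with centring, both are given. In the window, 65 members had r between -0.25 and 0.25 there.

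The edge of the set is a cut through a continuous range. Just inside the limit for a rise in Δ*laeA* stood AN5479 (r = 1.2) and AN12353 (1.21), and just outside it AN10921 and AN3354 (both just under 1.2). At the limit for a fall AN0312 (-1.2) and AN1089 (-1.23) were inside and AN10857 (-1.18) and AN4149 (-1.15) outside. In libraries labelled Δ*veA*, AN8557 and AN1113 (both 0.49) were inside the upper limit and AN5205 (0.50) and AN10742 (0.51) outside it. At the lower limit of that window AN0312 and AN0217 (both -0.50) were inside, while AN0655 (-0.50) and AN4126 (-0.51) were outside. AN4126 had means of 163 CPM in Δ*laeA*, 12.6 CPM in libraries labelled Δ*veA* and 21.3 CPM in WT, so a gene with a larger difference in Δ*laeA* than most members (r = 3.22) was left out by a small step in the window. For the level limit AN5508 (5.18 CPM in the higher group) and AN7798 (5.24 CPM) were inside, and AN5399 (4.81 CPM) and AN11048 (4.60 CPM) outside.

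A model over all 9481 tested genes describes the same differences with an error (edgeR quasi-likelihood, a differentially expressed gene or DEG needing over 2-fold change with a Benjamini-Hochberg adjusted p below 0.05). In Δ*laeA* against WT, all 83 raised members were DEGs in that direction, as were 9.9% of the genes tested, and all 42 lowered members were DEGs in theirs, as were 14.5% of the genes tested. In libraries labelled Δ*veA* against WT, 1 of the 125 members was a DEG, against 33.6% of the genes tested. That member was AN5410, with 8.55, 8.85 and 10.5 CPM in Δ*laeA*, 0.479, 0.287 and 0.543 CPM in libraries labelled Δ*veA* and 0.597, 1.26 and 1.19 CPM in WT. Its log2 fold change in libraries labelled Δ*veA* was -1.03 ± 0.34 (SE), its r was 3.0 in Δ*laeA* and -0.47 in libraries labelled Δ*veA*, and without the first WT library that last value was -0.65, outside the window. Without the minimum on the fold change 78 members had an adjusted p below 0.05 in libraries labelled Δ*veA*, against 80.2% of the genes tested, so being inside the window does not mean being at the WT level. In Δ*laeA* against the libraries labelled Δ*veA*, 71 of the 83 raised members were DEGs with more counts in Δ*laeA* (11.6% of the genes tested), and 37 of the 42 lowered members were DEGs with fewer (6.74%). The rule used all of these libraries, so none of these counts is evidence beyond it.

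*laeA* (AN0807) was itself a member, since its deletion met the rule. It had 4.53, 6.06 and 5.11 CPM in Δ*laeA* (80, 139 and 104 counts), 48.3, 39.0 and 42.0 CPM in libraries labelled Δ*veA* and 43.4, 40.3 and 39.2 CPM in WT. The Δ*laeA* libraries were all far below the other 6, and reads on the gene model were not 0. The libraries labelled Δ*veA* overlapped WT by CPM and were above it with centring. The log2 fold change over WT was -2.62 ± 0.11 (SE) in Δ*laeA*, and r was -2.55 in Δ*laeA* and 0.30 in libraries labelled Δ*veA*. The genes on either side of *laeA* in the gene order were no members: AN0808 had r of -0.34 in Δ*laeA* and AN0806 had -0.21, while AN0805, one gene further, had -1.0.

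The lowered members with the lowest r among those with at least 20 CPM in the higher group were AN8979, AN0841 and AN8500. They have no symbol in the RefSeq gene table used here, so no role is named, which does not mean that none is known. AN8979 had 5.72, 4.93 and 4.08 CPM in Δ*laeA*, 90.9, 83.2 and 96.9 CPM in libraries labelled Δ*veA* and 106, 113 and 108 CPM in WT. Its r was -4.03 in Δ*laeA* and -0.05 in libraries labelled Δ*veA*, and its log2 fold change in Δ*laeA* was -4.16 ± 0.09 (SE). In AN8979 the libraries labelled Δ*veA* lay below WT by CPM and overlapped it with centring, and Δ*laeA* was far below both. AN0841 had 0.963, 1.48 and 0.737 CPM in Δ*laeA*, 24.2, 28.3 and 26.4 CPM in libraries labelled Δ*veA* and 28.2, 31.7 and 26.6 CPM in WT, with r of -3.93 in Δ*laeA* and 0.10 in libraries labelled Δ*veA*. AN8500 had 4.25, 6.10 and 5.75 CPM in Δ*laeA*, 110, 121 and 117 CPM in libraries labelled Δ*veA* and 102, 107 and 105 CPM in WT, with r of -3.86 and 0.37. Their log2 fold changes in Δ*laeA* were -4.42 ± 0.16 for AN0841 and -3.95 ± 0.09 for AN8500 (SE). For AN8500 the libraries labelled Δ*veA* lay slightly above WT, and for AN0841 the libraries labelled Δ*veA* and WT overlapped.

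A further 6 lowered members in this rank, apart from *laeA*, lay between -3.04 and -2.35. AN1472 had 5.33, 5.01 and 5.11 CPM in Δ*laeA*, 48.3, 41.1 and 45.8 CPM in libraries labelled Δ*veA* and 51.7, 58.2 and 60.4 CPM in WT (r = -3.04 in Δ*laeA*). AN5558 had 18.9, 17.8 and 17.1 CPM in Δ*laeA*, 127, 96.3 and 107 CPM in libraries labelled Δ*veA* and 175, 171 and 169 CPM in WT (r = -2.92 in Δ*laeA*). In AN5558 the libraries labelled Δ*veA* were also all below WT, with r of -0.41, and without the first of them r became -0.52, outside the window. AN2020 had 4.36, 4.66 and 3.64 CPM in Δ*laeA*, 31.7, 32.0 and 31.1 CPM in libraries labelled Δ*veA* and 45.8, 39.7 and 39.2 CPM in WT (r = -2.85). AN7177 had 71.4, 67.9 and 66.3 CPM in Δ*laeA*, 376, 375 and 373 CPM in libraries labelled Δ*veA* and 521, 503 and 497 CPM in WT, with r of -2.57 and a log2 fold change of -2.56 ± 0.05 (SE) in Δ*laeA*. In these genes Δ*laeA* was lowest, the libraries labelled Δ*veA* between and WT highest by CPM, and with centring this order stayed except in AN1472, where the libraries labelled Δ*veA* and WT overlapped. AN0457 had 3.40, 2.70 and 3.44 CPM in Δ*laeA*, 18.9, 15.7 and 19.8 CPM in libraries labelled Δ*veA* and 24.9, 24.9 and 24.1 CPM in WT (r = -2.46). AN5947 had 4.08, 5.45 and 5.16 CPM in Δ*laeA*, 24.0, 21.9 and 21.6 CPM in libraries labelled Δ*veA* and 33.9, 34.1 and 32.6 CPM in WT (r = -2.35). These last genes kept the same order of the 3 groups.

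**Figure D2:**
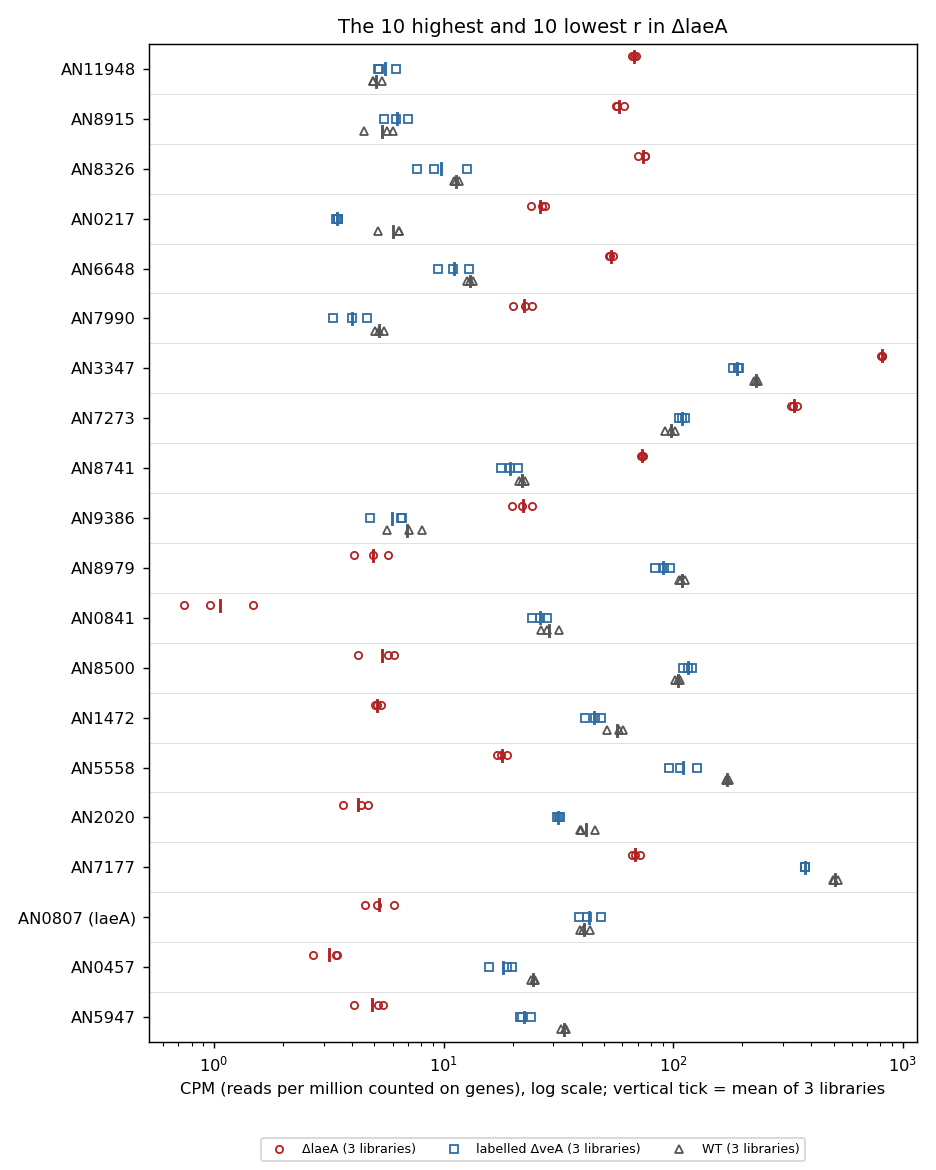
CPM on a log axis of the 10 members with the highest r (upper rows) and the 10 with the lowest r (lower rows) in Δ*laeA* among members of at least 20 CPM; circles are the 3 Δ*laeA* libraries, squares 3 libraries labelled Δ*veA*, triangles the 3 WT libraries, and the vertical tick is the mean of each group. In each row the Δ*laeA* circles stand apart from both other groups, as in AN8979 at 4.08 to 5.72 CPM in Δ*laeA*, against 106 to 113 CPM in WT.

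At the other end, AN11948 was the raised member with the highest r at this level. It had 69.0, 67.7 and 66.3 CPM in Δ*laeA*, 5.19, 6.22 and 5.23 CPM in libraries labelled Δ*veA* and 4.93, 4.95 and 5.41 CPM in WT, and r was 3.91 in Δ*laeA* and 0.34 in libraries labelled Δ*veA*. AN8915 had 56.1, 56.7 and 61.1 CPM in Δ*laeA*, 7.02, 6.17 and 5.53 CPM in libraries labelled Δ*veA* and 6.05, 4.50 and 5.66 CPM in WT (r = 3.61 in Δ*laeA*). In both genes the libraries labelled Δ*veA* overlapped WT by CPM and were above it with centring. The r of AN8915 in libraries labelled Δ*veA* was 0.42, and without the third of those libraries it was just above 0.50, outside the window. AN8326 had 75.5, 75.4 and 70.4 CPM in Δ*laeA*, 7.69, 12.6 and 9.08 CPM in libraries labelled Δ*veA* and 11.6, 11.1 and 11.4 CPM in WT (r = 2.95). AN0217 had 27.6, 26.9 and 24.0 CPM in Δ*laeA*, 3.47, 3.40 and 3.45 CPM in libraries labelled Δ*veA* and 6.42, 5.20 and 6.41 CPM in WT (r = 2.34). AN0217 differed from the others, since the libraries labelled Δ*veA* were all below WT and its r there was -0.50, which became -0.59 without the second WT library.

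The next raised members had r between 1.91 and 2.30. AN6648 had 54.7, 52.3 and 53.2 CPM in Δ*laeA*, 13, 9.43 and 11 CPM in libraries labelled Δ*veA* and 13.1, 13.4 and 12.7 CPM in WT (r = 2.30). AN7990 had 24.4, 19.97 and 22.6 CPM in Δ*laeA*, 4.0, 3.3 and 4.64 CPM in libraries labelled Δ*veA* and 5.52, 5.23 and 5.01 CPM in WT (r = 2.29). AN3347 had 806, 811 and 815 CPM in Δ*laeA*, 191, 183 and 194 CPM in libraries labelled Δ*veA* and 226, 230 and 234 CPM in WT (r = 2.12). In AN7990 and AN3347 the libraries labelled Δ*veA* lay just below WT by CPM and overlapped it with centring, and in AN6648 they overlapped it either way. AN7273 had 327, 347 and 334 CPM in Δ*laeA*, 109, 113 and 106 CPM in libraries labelled Δ*veA* and 102, 92.0 and 98.2 CPM in WT (r = 2.09). AN8741 had 72.7, 72.9 and 73.6 CPM in Δ*laeA*, 21.0, 19.5 and 17.8 CPM in libraries labelled Δ*veA* and 21.9, 21.4 and 22.7 CPM in WT (r = 2.02). AN9386 had 19.9, 22.1 and 24.3 CPM in Δ*laeA*, 6.57, 6.51 and 4.79 CPM in libraries labelled Δ*veA* and 8.06, 7.08 and 5.66 CPM in WT (r = 1.91). The libraries labelled Δ*veA* were above WT in AN7273 and overlapped it in AN9386, and in AN8741 they were below WT by CPM and overlapped it with centring.

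The members AN12013, AN10387, AN2613, AN10197 and AN10790 also lay at 2 or above or at -2 or below but were outside that rank. They are named after their values were seen. The raised members AN12013, AN10387 and AN2613 were below the level limit of the rank. The lowered members AN10197 and AN10790 passed that limit, but their r was above that of every lowered member in the rank. AN12013 had 14.6, 11.7 and 13.9 CPM in Δ*laeA*, 3.24, 3.11 and 2.12 CPM in libraries labelled Δ*veA* and 2.24, 4.0 and 3.92 CPM in WT (r = 2.15). AN10387 had 19, 16.4 and 17.3 CPM in Δ*laeA*, 2.17, 2.92 and 2.91 CPM in libraries labelled Δ*veA* and 4.7, 5.29 and 4.17 CPM in WT (r = 2.1), so here the libraries labelled Δ*veA* lay below WT. AN2613 had 10.9, 10.5 and 11.9 CPM in Δ*laeA*, 3.21, 2.49 and 3.11 CPM in libraries labelled Δ*veA* and 3.21, 2.74 and 3.28 CPM in WT (r = 2.0). Of the lowered ones, AN10197 had 3.74, 4.45 and 3.98 CPM in Δ*laeA*, 21.3, 21.7 and 24 CPM in libraries labelled Δ*veA* and 23.1, 29.5 and 25.1 CPM in WT (r = -2.23), where the libraries labelled Δ*veA* and WT overlapped. AN10790 had 3.91, 3.88 and 3.54 CPM in Δ*laeA*, 15.8, 15.1 and 14 CPM in libraries labelled Δ*veA* and 23, 21.3 and 22 CPM in WT (r = -2.1), with no overlap between the groups. Members not named in the text lay closer to the limits, with r in Δ*laeA* of at most 1.91 for raised and at least -1.89 for lowered ones.

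Some members were close to silent in Δ*laeA* or in WT. These genes were picked after their values were seen. AN8526 had the highest r of all members (4.28), at 7.87, 8.20 and 8.40 CPM in Δ*laeA*, 0 counts in each of the libraries labelled Δ*veA* and 0.149, 0 and 0 CPM in WT. In summed counts these were 498 in Δ*laeA*, 0 in libraries labelled Δ*veA* and 2 in WT. Both WT counts were in 1 library, and without that library WT had no count. From summed counts over summed library totals, the level in Δ*laeA* was 283-fold that in WT (95% exact interval for counting error only, 78.0 to 2345), while the ratio of the mean CPM was 164-fold. By summed counts it was also at least 209-fold higher than in libraries labelled Δ*veA*, taking the limit of 3 counts over the group. AN1577 had 12.7, 11.5 and 11.1 CPM in Δ*laeA*, 0.225, 0.574 and 0.543 CPM in libraries labelled Δ*veA* and 0.523, 0.559 and 0.199 CPM in WT (r = 4.03). AN3877 had 12.6, 13.8 and 12 CPM in Δ*laeA*, 0.310, 0.287 and 0.247 CPM in libraries labelled Δ*veA* and 0.149, 0.867 and 0.695 CPM in WT (r = 3.94). These 3 genes were the raised members below 1 CPM in WT, and 20 of the 83 raised members were below 5 CPM there.

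The converse was seen in the lowered members, of which 26 of 42 were below 5 CPM in Δ*laeA* and 5 below 1 CPM. AN4151 had 0.227, 0.523 and 0.491 CPM in Δ*laeA*, 13.7, 15.3 and 15.3 CPM in libraries labelled Δ*veA* and 14.4, 14.8 and 14.3 CPM in WT (r = -3.73). AN1723 had 0.793, 0.523 and 0.590 CPM in Δ*laeA*, 19.5, 20.1 and 16.0 CPM in libraries labelled Δ*veA* and 19.4, 19.2 and 19.9 CPM in WT (r = -3.83). In both genes the libraries labelled Δ*veA* and WT overlapped by CPM, and with centring those of AN4151 were above WT. AN6785 had 0.453, 0.828 and 0.295 CPM in Δ*laeA*, 5.47, 5.74 and 6.51 CPM in libraries labelled Δ*veA* and 8.14, 8.47 and 7.60 CPM in WT (r = -2.76). AN7798 had 0.453, 0.828 and 0.246 CPM in Δ*laeA*, 3.02, 3.30 and 3.40 CPM in libraries labelled Δ*veA* and 4.70, 5.85 and 5.16 CPM in WT (r = -2.20). The fifth was *ergS*, given below. For these genes r is compressed by the 0.5 CPM added to each mean.

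Only 9 of the 125 members carried a symbol in the gene table, *laeA* among them, against 779 of the 10988 rows, so roles can be named for few. Of the raised ones, *niiA* (AN1007), the nitrite reductase of nitrate assimilation, had the most counts of all members. CPM is not divided by gene length, so it does not rank transcripts of different genes. *niiA* had 9377, 9546 and 9701 CPM in Δ*laeA*, 4897, 4744 and 4862 CPM in libraries labelled Δ*veA* and 4085, 4052 and 3973 CPM in WT. The 3 groups did not overlap, with the libraries labelled Δ*veA* above WT too. Its r was 1.55 in Δ*laeA* and 0.49 in libraries labelled Δ*veA*, and leaving out the second of these libraries put it at 0.51, outside the window. Its neighbours in the nitrate cluster were not members. The nitrate transporter gene *crnA* had means of 207 CPM in Δ*laeA*, 288 CPM in libraries labelled Δ*veA* and 84.5 CPM in WT, and the nitrate reductase gene *niaD* had 1185, 988 and 735 CPM in that order. The r of *crnA* was 1.6 in Δ*laeA* and 1.99 in libraries labelled Δ*veA*, while *niaD* was under the limit in Δ*laeA* and had r of 0.65 in libraries labelled Δ*veA*. The pathway regulator gene *nirA* had r of 0.24 and 0.38 in these comparisons and *areA*, the general nitrogen regulator gene, 0.35 and -0.42.

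The other raised members with a symbol were *sxa2*, *tcsC* and *exg1*. *sxa2* (AN2555), named after a serine carboxypeptidase of *Schizosaccharomyces pombe*, had 1121, 1127 and 1117 CPM in Δ*laeA*, 458, 454 and 456 CPM in libraries labelled Δ*veA* and 444, 468 and 461 CPM in WT (r = 1.6). *tcsC* (AN4479), which in *Aspergillus fumigatus* encodes a hybrid histidine kinase of osmotic stress signalling, had 794, 763 and 780 CPM in Δ*laeA*, 310, 310 and 311 CPM in libraries labelled Δ*veA* and 392, 405 and 404 CPM in WT (r = 1.27). *exg1* (AN4052), named after a cell wall exo-glucanase of *Saccharomyces cerevisiae*, had 59.0, 60.4 and 60.7 CPM in Δ*laeA*, 29.1, 30.5 and 31.6 CPM in libraries labelled Δ*veA* and 31.6, 33.2 and 29.6 CPM in WT (r = 1.23). The libraries labelled Δ*veA* were below WT in *tcsC*, and in *sxa2* and *exg1* they overlapped WT by CPM and were above it with centring. Without the third WT library r of *exg1* in Δ*laeA* was 1.18, below the limit.

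The lowered members with a symbol, besides *laeA*, were *grc3*, *ergS*, *aah1* and *aspf34*. *grc3* (AN4599), named after a yeast polynucleotide kinase of ribosomal RNA processing, had 3.80, 3.58 and 3.34 CPM in Δ*laeA*, 18.9, 17.1 and 20.6 CPM in libraries labelled Δ*veA* and 24.0, 25.4 and 20.9 CPM in WT (r = -2.25). *aah1* (AN6078), named after the adenine deaminase of yeast purine salvage, had 3.63, 4.10 and 4.62 CPM in Δ*laeA*, 15.9, 20.2 and 16.8 CPM in libraries labelled Δ*veA* and 22.2, 25 and 22.7 CPM in WT (r = -2.06). In both, Δ*laeA* was lowest, and the libraries labelled Δ*veA* were just under WT by CPM and overlapped it with centring. *aspf34* (AN8333), named after an allergen of *A. fumigatus*, had 7.82, 7.72 and 7.67 CPM in Δ*laeA*, 29.8, 28.7 and 26.7 CPM in libraries labelled Δ*veA* and 33.2, 27.0 and 26.7 CPM in WT (r = -1.53). *ergS* (AN8148) had 1.02, 0.698 and 0.786 CPM in Δ*laeA*, 4.65, 4.36 and 3.85 CPM in libraries labelled Δ*veA* and 6.34, 7.13 and 7.2 CPM in WT (r = -2.16). The libraries labelled Δ*veA* overlapped WT in *aspf34* and were all below it in *ergS*, whose r there was -0.40.

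In CPM, 7 raised members reached 1000 in Δ*laeA*, and 1 lowered member, AN10761, reached 1000 in WT. The 5 members with the highest mean CPM over Δ*laeA* and WT were all raised and were *niiA*, AN2286, AN4135, AN1262 and AN2287. AN2286 had 7911, 7851 and 7734 CPM in Δ*laeA*, 3286, 3236 and 3173 CPM in libraries labelled Δ*veA* and 3463, 3220 and 3262 CPM in WT (r = 1.55). AN4135 had 3954, 4066 and 3931 CPM in Δ*laeA*, 1183, 1237 and 1236 CPM in libraries labelled Δ*veA* and 1758, 1857 and 1820 CPM in WT (r = 1.44). In AN2286 the libraries labelled Δ*veA* overlapped WT by CPM and were above it with centring, whereas AN4135 was lower there than in WT either way. AN1262 had 3655, 3304 and 3534 CPM in Δ*laeA*, 1145, 1305 and 1331 CPM in libraries labelled Δ*veA* and 1602, 1618 and 1675 CPM in WT (r = 1.41). AN2287 had 2714, 2590 and 2632 CPM in Δ*laeA*, 694, 769 and 805 CPM in libraries labelled Δ*veA* and 1008, 1072 and 1070 CPM in WT (r = 1.64). These 2 genes followed the order of AN4135. AN10761 had 595, 585 and 619 CPM in Δ*laeA*, 1736, 1818 and 1817 CPM in libraries labelled Δ*veA* and 2294, 2484 and 2477 CPM in WT (r = -1.70), again with no overlap between groups.

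**Figure D3:**
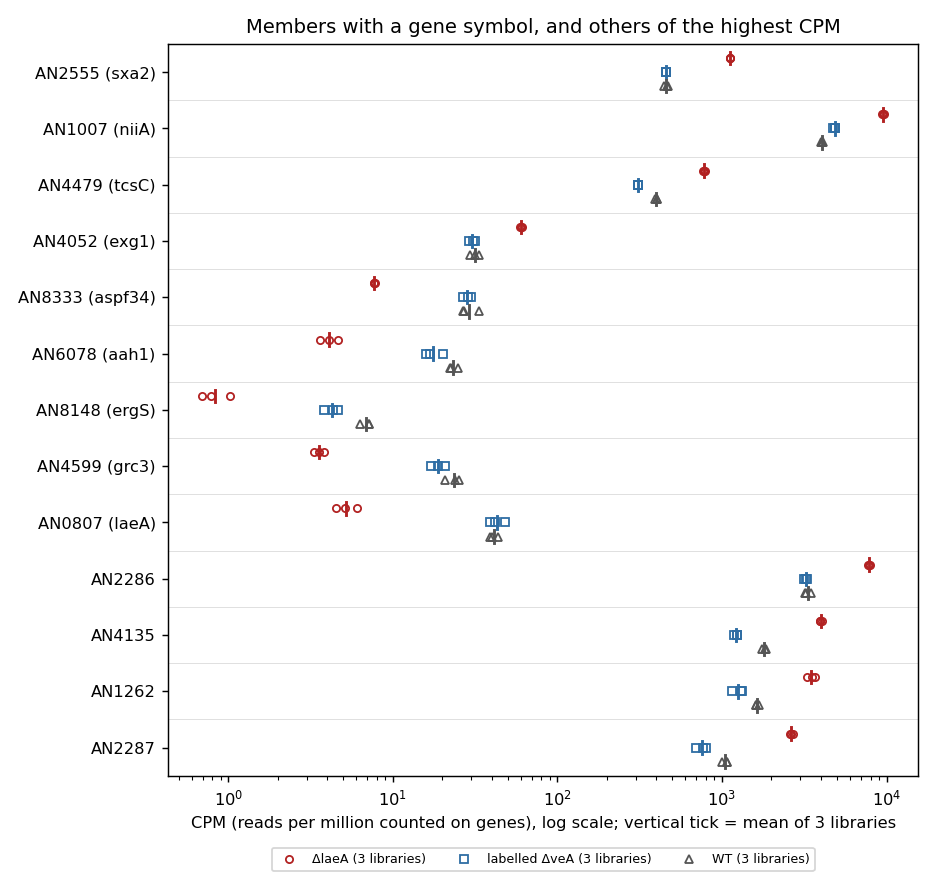
CPM on a log axis of the 9 members with a gene symbol (upper rows) and of the 4 others among the 5 of highest mean CPM over Δ*laeA* and WT (lower rows); circles are Δ*laeA* libraries, squares the libraries labelled Δ*veA*, triangles WT libraries, 3 each, with a vertical tick at each mean. *niiA* sits at 9377 to 9701 CPM in Δ*laeA* with the libraries labelled Δ*veA* above WT, while in *sxa2* the libraries labelled Δ*veA* and WT overlap in CPM.

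The order of genes along the chromosomes was not used by the rule. Of the 125 members 116 could be placed in the RefSeq gene order, and 18 of these (15.5%) stood next to another member, against 2.19% of all genes in that order having a member beside them. A neighbour of any kind past the Δ*laeA* thresholds was found for 46 members (39.7%), against 20.7% of all genes. These shares are a description, since neighbours can also share reads: 1 member (0.862%), AN1089, had a gene model that overlapped its neighbour, as did 2.82% of all genes, and the sources used here do not name a strand setting for the counts. The 18 members formed 9 adjacent pairs, of which 7 were raised in both genes, 1 was lowered in both and 1 held a gene of each direction. The pair members and flanking genes below were named after their values were seen, unless given above.

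In AN8325 and AN8326 both genes of the pair had r near 3. AN8325 had 17.1, 16.4 and 16.2 CPM in Δ*laeA*, 1.61, 1.48 and 1.18 CPM in libraries labelled Δ*veA* and 1.64, 1.71 and 1.44 CPM in WT (r = 3.33), and AN8326 had r of 2.95, as given above. In both the libraries labelled Δ*veA* overlapped WT. On one side of this pair AN8324 had r of 0.83 in both comparisons, and beyond it AN8323 and AN8322 had r of -1.64 and -3.11 in Δ*laeA* and -2.96 and -4.24 in libraries labelled Δ*veA*. AN11523 (r = 2.04) stood beside AN6648 (2.30), with 11.7, 13.1 and 9.58 CPM in Δ*laeA*, 3.41, 3.02 and 2.62 CPM in libraries labelled Δ*veA* and 3.14, 3.33 and 2.83 CPM in WT. The near-silent AN3877 (3.94) stood beside AN3876 (1.33), which had 15.1, 14.3 and 14.7 CPM in Δ*laeA*, 8.71, 6.22 and 8.64 CPM in libraries labelled Δ*veA* and 6.72, 6.68 and 7.60 CPM in WT. The pairs thus joined genes with like and with quite different r.

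AN3348 and AN3347 were raised in Δ*laeA* (r = 1.34 and 2.12) between genes that were far below WT in libraries labelled Δ*veA*. AN3348 had 155, 157 and 151 CPM in Δ*laeA*, 53.7, 55.1 and 55.1 CPM in libraries labelled Δ*veA* and 71.7, 75.6 and 77.8 CPM in WT. In libraries labelled Δ*veA*, r was -3.42 for AN3349 before the pair, and -2.59 and -2.74 for AN3346 and AN3345 after it, whereas the pair itself had -0.23 and -0.06. In Δ*laeA* these flanking genes had r of -1.17, 0.97 and 1.17. AN2286 and AN2287, both among these 5 members of highest mean CPM over Δ*laeA* and WT, were another pair (1.55 and 1.64), and so were AN3116 and AN3115 (1.41 and 1.37), which had means of 55.7 and 45.7 CPM in Δ*laeA*, 26.4 and 20.4 CPM in libraries labelled Δ*veA* and 25.6 and 21.7 CPM in WT. Beside AN3116 stood AN3117, with r of 2.1 in Δ*laeA* and 1.29 in libraries labelled Δ*veA*, so that gene left the window. The lowered pair was AN10761 and AN5947 (-1.70 and -2.35), and the next genes after it, AN5946 and AN5945, had r of 2.83 and 2.92 in libraries labelled Δ*veA*. The pair of opposite directions was AN7012 (1.40) and AN7011 (-1.30). AN7012 had 33.4, 32.7 and 33.9 CPM in Δ*laeA*, 9.24, 9.0 and 9.38 CPM in libraries labelled Δ*veA* and 16.6, 14.5 and 15.0 CPM in WT. AN7011 had 70.8, 64.8 and 64.5 CPM in Δ*laeA*, 121, 128 and 129 CPM in libraries labelled Δ*veA* and 193, 208 and 210 CPM in WT. In both genes the libraries labelled Δ*veA* were below WT, with r near the lower limit (-0.48 for AN7012 and -0.47 for AN7011), and leaving out 1 WT library took either gene out of the window (-0.53 for AN7012 without the second and -0.50 for AN7011 without the first).

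In 2 places 3 or more members lay within 6 consecutive genes. The first ran AN7915, AN7916, AN7917 and AN7918, with r in Δ*laeA* of 1.58, 1.91, 2.14 and 2.19. AN7915 had 40.4, 43.0 and 47.1 CPM in Δ*laeA*, 19.2, 20.8 and 20.8 CPM in libraries labelled Δ*veA* and 17.7, 17.0 and 18.4 CPM in WT. AN7917 had 13.3, 15.1 and 13.8 CPM in Δ*laeA*, 5.04, 3.02 and 3.31 CPM in libraries labelled Δ*veA* and 4.11, 3.55 and 3.08 CPM in WT. AN7918 had 7.53, 10.1 and 7.72 CPM in Δ*laeA*, 1.07, 1.63 and 1.63 CPM in libraries labelled Δ*veA* and 2.02, 1.99 and 1.79 CPM in WT. AN7916 was no member because its mean of 3.27 CPM in Δ*laeA* was under the level limit, and its r in libraries labelled Δ*veA* was 0.15, so 4 genes in a row differed in Δ*laeA* and stayed inside the window. The genes before and after them, AN7914 and AN7919, had r of -0.21 and 0.88 in Δ*laeA*.

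The second ran over AN10042, AN0219, AN0218, AN0217, AN0216 and AN0215, with r in Δ*laeA* of 1.39, 0.92, 1.76, 2.34, 0.17 and 1.48. Its members were AN10042, AN0217 and AN0215. AN10042 had 39.4, 42.3 and 39.5 CPM in Δ*laeA*, 20.3, 22.5 and 22.9 CPM in libraries labelled Δ*veA* and 15.2, 18.9 and 22.1 CPM in WT, where the libraries labelled Δ*veA* overlapped WT by CPM and were above it with centring. Its r in libraries labelled Δ*veA* was 0.45, and it was 0.57 without the third WT library. AN0215 had 8.10, 7.37 and 7.77 CPM in Δ*laeA*, 2.51, 3.25 and 2.96 CPM in libraries labelled Δ*veA* and 3.21, 2.99 and 3.28 CPM in WT. AN0218 met the limit in Δ*laeA* but had r of 1.09 in libraries labelled Δ*veA*. This run was thus broken by a gene that was higher in both mutants and by genes under the limit.

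**Figure D4:**
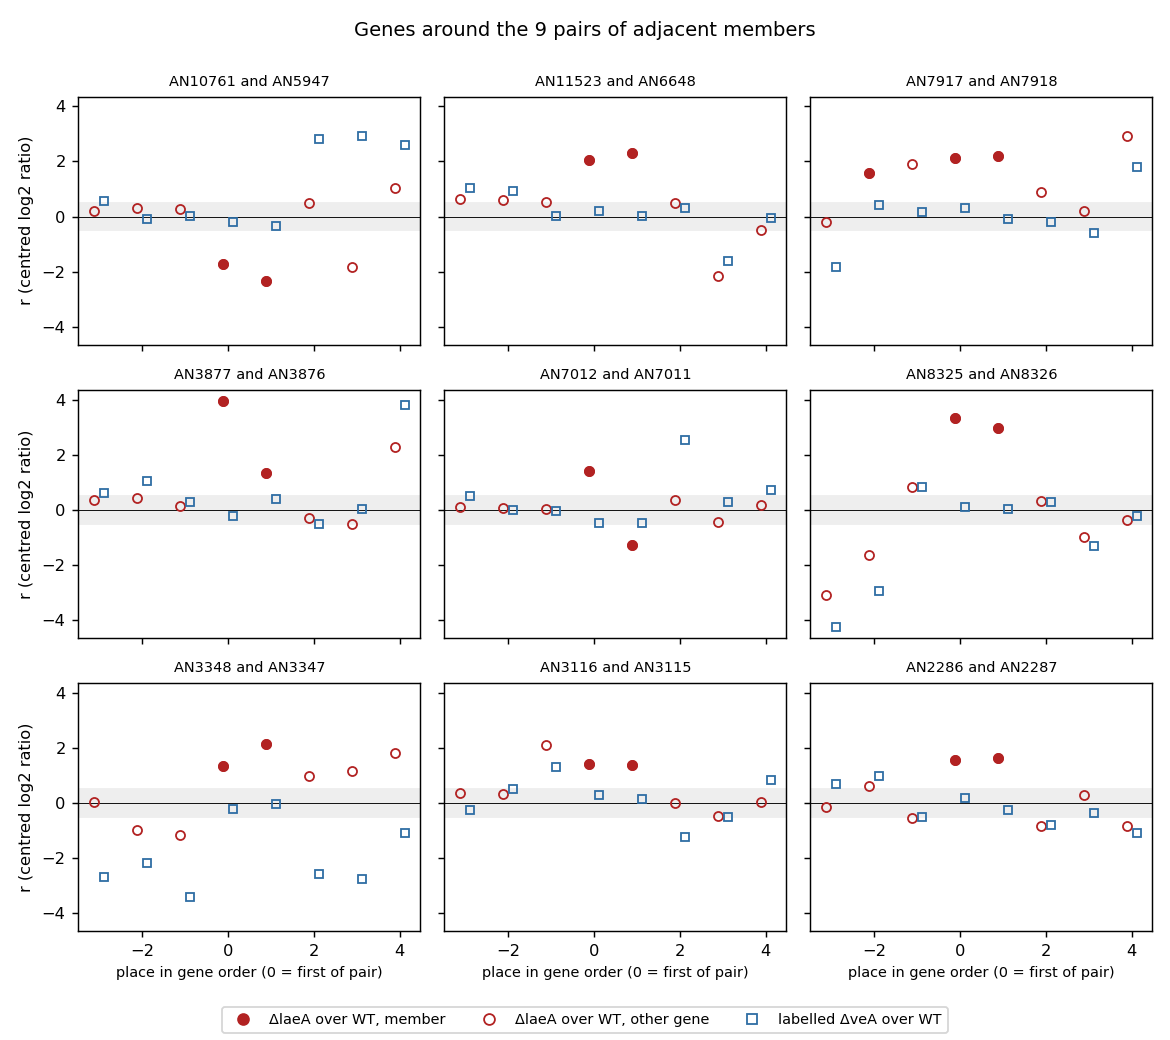
For each of the 9 pairs of adjacent members, r of the pair and of the 3 genes on either side is plotted against the place in the gene order (0 is the first gene of the pair); red circles are Δ*laeA* over WT (filled for members), blue squares are the libraries labelled Δ*veA* over WT, and the grey band is the window from -0.5 to 0.5. In the panel of AN3348 and AN3347 the flanking blue squares lie well below the band (-3.42, -2.59 and -2.74), while those of the pair lie inside it.

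The members are 1.14% of all genes, so gene lists matched by symbol, of 2 to 19 genes each, could hold few by their size alone. None of the 13 secondary metabolism genes found by symbol was a member. These were *tpc*, *fma* and *ivo* genes with *pkhB*, *yA* and *pksP*. The other clusters on the list, such as *aus*, *mdp* and *apd*, had no match by symbol. Whether the members include genes of those clusters was therefore not seen here. Members without a symbol were not looked up by gene number, so some of them may belong to those clusters. Of the 12 tested, 1 was a DEG that was higher and 6 were DEGs that were lower in Δ*laeA* (median log2 fold change -1.17), and 9 were DEGs that were lower in libraries labelled Δ*veA* (median -2.13), by edgeR's test. Over all 9481 genes tested the DEGs were 939 higher and 1373 lower in Δ*laeA* and 1293 higher and 1888 lower in libraries labelled Δ*veA*, with medians of 0.00. The list of 15 nitrogen genes held 1 member, *niiA*, with 5 DEGs higher and 1 lower in Δ*laeA* (median 0.27) and 2 higher and 2 lower in libraries labelled Δ*veA* (median 0.43). The 19 conidiation genes found by symbol held no member, with 1 DEG higher and 8 lower in Δ*laeA* (median -0.50). The 18 regulators of secondary metabolism and light response held only *laeA* itself, which was also the 1 DEG of that list in Δ*laeA*. No matched gene was a member in the lists of sulphur and methionine, sugar use, transporters, oxidative stress, sexual development, cell wall and iron. The member *exg1*, named after a cell wall exo-glucanase, had not been written into the cell wall list. Many symbols written into the lists, such as *phiA* in the conidiation list, had no match in the gene table. A member known by such a symbol, or held in the gene table under another symbol, would be missed. As members with a symbol were so few, these counts say little about what the other members do.

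How firmly a gene belongs to the set varied. With each library left out in turn, the rule took 77 to 86 raised and 39 to 44 lowered genes, and 110 to 124 of the 125 members stayed. In all 9 of these runs 87 members stayed, 56 raised and 31 lowered, while 38 left at least once and 19 at least 2 times. AN0312, at the corner of the limits, left 7 times and AN1089 left 5 times. Scaling with TMM factors in place of centring kept 118 members and RLE factors kept 117. A narrower window of 0.3 took 52 raised and 25 lowered genes, and a wider one of 0.7 took 109 and 65.

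**Figure D5:**
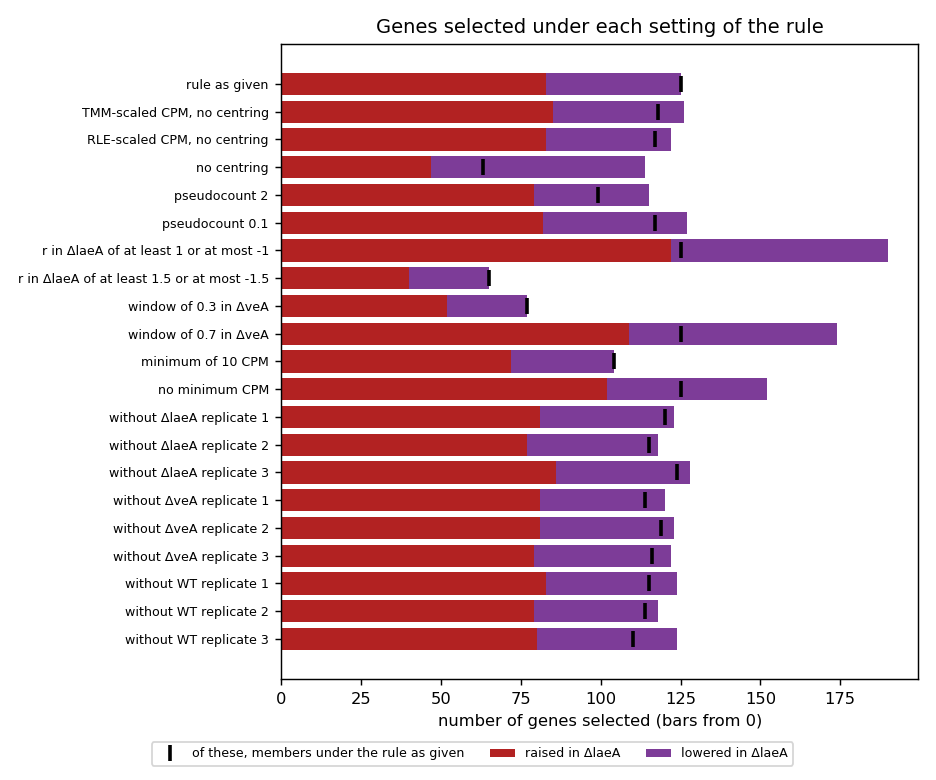
Bars from 0 give the number of genes taken under each setting of the rule, split into genes raised (red) and lowered (purple) in Δ*laeA*, and the black tick marks how many of them are among the 125 members. Leaving out 1 library keeps 110 to 124 members, whereas without centring the bar turns from mostly red to mostly purple (47 raised and 67 lowered) and 63 members are kept.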

How the data were processed

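Per the labels and the methods, the authors mapped clean reads with HISAT2 2.1 and counted them per gene with featureCounts 1.5.0, and the deposited files hold these read counts without normalization. Their strand setting is not given in the sources used here. The 9 single-library files equal the columns of the common table (10988 rows, 264 without counts, 31 with a repeated ID). Samples were grouped by the genotype label. The *veA* counts go against it in 1 group, whose libraries are therefore written as labelled Δ*veA*. The members and the gene lists were chosen with earlier results of these data known.

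CPM, r and the rule were computed with Python 3.11.15. The model used TMM factors, filterByExpr and the quasi-likelihood test of edgeR 4.0.16 (R 4.3.3) fitted once to the 9 libraries together, adjusted by Benjamini-Hochberg over 9481 genes. Standard errors were taken from its F statistic. It was tested on simulated data. Alternatives were DESeq2 1.42.0, other scalings, filters and thresholds, replicate blocks and left-out libraries. Intervals cover counting error only. Gene symbols and gene order came from the RefSeq table of ASM1142v1, which differs from the record cited for the counting, and 10032 rows matched it. No coordinate is printed. Product names, promoters and proteins of the members were not analysed here. Genes were named by a rule: the 10 highest and 10 lowest r among members of at least 20 CPM whose Δ*laeA* and WT libraries do not overlap, members with a symbol, members in runs, the 5 of highest mean CPM over Δ*laeA* and WT, the strain markers, and 2 genes on each side of a limit. Members named outside it were not run through the alternatives of the model.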

Additional observations from a re-analysis of the deposited data

How the results depend on the processing

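The number of genes taken by the rule moved with its limits. Main values were 83 raised and 42 lowered. Without centring they were 47 and 67, with r of at least 1.5 in Δ*laeA* 40 and 25, with a window of 0.3 in libraries labelled Δ*veA* 52 and 25, and with a window of 0.7 the lowered genes numbered 65. With r of at least 1 the lowered genes numbered 68. The cause was not tested beyond the construction of these settings. With 1 library left out the raised genes numbered 77 to 86 and the lowered genes 39 to 44.

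In the model, library totals alone shifted the median log2 fold change of all genes to -0.33 in Δ*laeA* and -0.26 in libraries labelled Δ*veA*, and gave 575 DEGs higher in Δ*laeA* (main 939) and 824 higher in libraries labelled Δ*veA* (main 1293). A minimum of 10 counts in every library, which tests fewer genes, gave 908 DEGs lower in Δ*laeA* (main 1373). Of 719 alternative values for the 45 members named by the rule, 714 kept their direction and call. The other 5, all with library totals alone, fell under 2-fold (AN12353, *exg1*, *tcsC*, AN5479 and AN8557), and none changed sign.

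Same-numbered libraries correlated at -0.041 to 0.101 in their deviations from the group means, so the numbers were not taken as pairs. With the replicate block there were 935 DEGs higher and 1371 lower in Δ*laeA*. Depth limits the members under 1 CPM in a group, whose folds rest on few counts.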
